A study of Mus musculus with 30 samples.

Results

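The replication-dependent histone genes are the clustered, mostly intronless genes that make the bulk of new histone protein. Their members here were the rows whose name starts with Hist1h, Hist2h, Hist3h or Hist4h and holds no pseudogene mark, with a summed count of at least 30 exon reads over all 30 libraries. Of 70 rows with such names, 1 was named as a pseudogene and 5 stayed under the count minimum, which left 64 members of 46113 gene identifiers in the files. They comprised 6 genes of the linker histone H1, 17 of H2A, 17 of H2B, 12 of H3 and 12 of H4. In the mm10 coordinates of the files, 51 members lay in the Hist1 cluster on chromosome 13, 10 in Hist2 on chromosome 3, 2 in Hist3 on chromosome 11 and 1, Hist4h4, on chromosome 6. The rows left out for low counts were Hist1h2aj and Hist1h2al with 0 reads, Hist1h2aa with 4, Hist1h4m with 7 and Hist1h2ba with 15, while the members just inside the minimum were Hist2h2aa2 with 55 reads and Hist1h1t with 98.

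The libraries were RNA sequencing libraries, each from 100 sorted bone marrow cells of C57BL/6 mice aged 8 to 10 weeks. Hematopoietic stem cells (HSCs) were defined as CD150+, CD48-, EPCR+ and Lineage-, and hematopoietic progenitor cells (HPCs) as CD150+, CD48+, EPCR+ and Lineage-. A first set held HSCs of untreated mice (4 libraries), HSCs taken 6 days after 5-fluorouracil (5-FU; 4 libraries) and HSCs taken 10 days after it (6 libraries). A second set held HSCs of untreated mice cultured for 1 day (4 libraries) and uncultured HSCs (4 libraries), and a final set held CD48+ HPCs and CD48- HSCs, both from day 10 after 5-FU (4 libraries each). No genetic change is named for any group, and all cells had passed a sort that selected CD150 and EPCR. The labels do not say that libraries of a group came from separate animals, so p-values measure the spread between libraries, which may be technical. Total exon reads ran between 5208722 and 12243208 per library, and histone members took between 0.0457% (untreated replicate 3) and 0.282% (CD48+ replicate 2) of them.

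Nucleosomes are built from H2A, H2B, H3 and H4, and H1 binds the linker DNA between them. A dividing cell must double its histones while it copies its DNA, and the replication-dependent genes are known to be transcribed and their mRNAs stabilised in S phase, under the coactivator NPAT. Their mRNAs end in a short stem-loop rather than a poly(A) tail. The stem-loop binding protein SLBP holds it, and the mRNAs are degraded when replication stops. Stem cells of the marrow are mostly out of cycle in an untreated mouse, and 5-FU kills cycling cells, after which the surviving stem cells are known to divide.

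The stem-loop sequences of members named below show the feature that these mRNAs share and the rule for choosing them did not use. Each line gives the 16-base stem-loop in capitals with up to 5 flanking bases on each side in lower case, read 5′ to 3′ as DNA from the GENCODE M21 transcript of the gene.
Hist1h1c: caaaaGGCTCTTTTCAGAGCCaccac
Hist1h1d: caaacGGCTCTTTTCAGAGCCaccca
Hist2h2aa1: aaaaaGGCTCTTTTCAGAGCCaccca
Hist2h2ac: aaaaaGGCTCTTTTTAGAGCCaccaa
Hist1h2be: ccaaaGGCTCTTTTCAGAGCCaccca
Hist1h2bk: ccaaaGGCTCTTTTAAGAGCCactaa
Hist2h3c2: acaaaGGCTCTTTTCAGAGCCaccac
Hist1h4d: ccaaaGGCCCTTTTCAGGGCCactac
Hist1h4b: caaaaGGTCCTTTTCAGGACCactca
Hist2h4: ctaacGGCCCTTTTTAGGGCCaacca

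The 16-base histone stem-loop, searched on the sense strand of the annotated transcripts, was found in 43 of the 64 members, and 51 of 55450 genes of the annotation (0.092%) held a match. The 10 H4 genes with a match carried GGCCC or GGTCC at the 5′ side of the stem, as Hist1h4d and Hist1h4b show, and the other 33 carried GGCTC. The stem-loop began between 21 and 58 bases after the stop codon, with a median of 31. For 14 of the 21 members without a match the annotated 3′ UTR was shorter than 45 bases, and a missing match says only that these letters are not in the annotated transcript. With the flanking bases printed above, the stem-loop of Hist1h1d lay at chr13:23555782-23555807 on the plus strand and that of Hist2h4 at chr3:96262934-96262959 on the minus strand.

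Many members are near-identical copies, and reads could often not be placed on 1 of them. Of all exon reads on members 54.9% were unique, against 81.9% of all exon reads in the 30 libraries, and 34 of the 64 members had less than 50% unique reads. Hist2h2aa1, the H2A gene with the highest mean CPM, had 21450 reads of which 0.0047% were unique; Hist2h2aa2 is its near-identical copy, and Hist2h3c2 shares its sequence with Hist2h3c1. Values of such genes are uncertain as values of 1 gene. Levels are given as CPM (exon counts scaled to the TMM-adjusted size of each library), on 1 scale over all 30 libraries. The members Hist1h1a, Hist1h1b, Hist2h2bb, Hist2h2be and Hist2h4 had between 96.0% and 100.0% unique reads. Per kb of exon, the level averaged over all 30 libraries was 168 CPM per kb for Hist1h4d, 159 for Hist2h2aa1, 157 for Hist1h1d and 153 for Hist1h1b, against 1.28 for Hist1h2bp, 0.527 for Hist1h1t and 0.493 for Hist2h2aa2 at the low end.

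Markers of HSCs were present in all libraries, and some libraries also held reads of markers of other cells. All 8 HSC markers searched (Hlf, Mecom, Procr, Slamf1, Fgd5, Ctnnal1, Hoxb5 and Kit) were detected in all 30 libraries, and they summed to 2001 to 2053 CPM at day 6, against 3349 to 3862 CPM in untreated HSCs. Of these 8 markers, 0 were called higher and 3 lower at day 6, and 1 higher and 2 lower at day 10, each against untreated HSCs. Erythroid markers summed to 1676 to 4162 CPM in untreated libraries, to 20.4 to 3129 CPM in uncultured libraries and to 5659.6 CPM in replicate 3 of the CD48- HSCs, against 16.9 to 106 CPM in all other libraries. Granulocyte markers summed to 1588 CPM in untreated replicate 3 and to 367 and 291 CPM in uncultured replicates 1 and 4. Macrophage markers ran up to 455 CPM at day 6 (replicate 1) and up to 793 CPM in CD48+ HPCs (replicate 3).

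Summed over all members, the group means of histone RNA were 1.73 times as high in day-6 as in untreated HSCs, 3.57 times as high in cultured as in uncultured HSCs and 2.11 times as high in CD48+ HPCs as in CD48- HSCs. In untreated HSCs the 64 genes summed to 842, 1067, 441 and 517 CPM (replicates 1 to 4), in day-6 HSCs to 1079.7, 1342, 1032 and 1508 CPM, and in day-10 HSCs to a lowest value of 909.8, a median of 1001 and a highest value of 1183 CPM. Untreated replicate 2 stood inside the day-6 range, so the groups overlapped. Cultured HSCs gave 2679, 2361, 2303 and 2159.5 CPM, against 761, 632, 789.9 and 482 CPM in uncultured HSCs, and every cultured library was above every uncultured one. CD48+ HPCs gave 2121, 2879.8, 1377 and 2444 CPM, against 1146, 1497, 916 and 612 CPM in CD48- HSCs, and the groups overlapped through CD48+ replicate 3 and CD48- replicate 2. A sum over members has no test, and fewer cells of a kind and less RNA per cell cannot be told apart in such libraries.

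**Figure D1:**
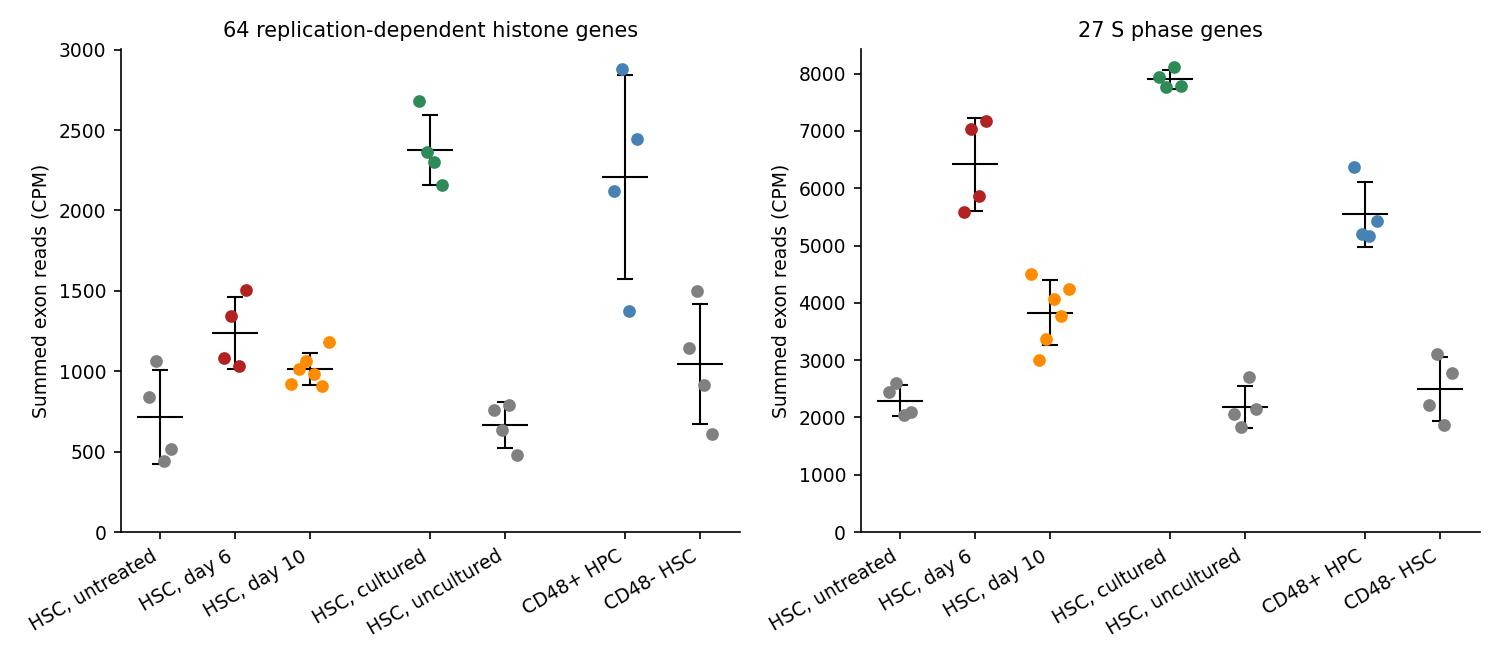
Summed CPM of the 64 histone members (left) and of 27 S phase genes (right) in each library, with mean and SD per group as the line and bars. The 4 cultured libraries sit between 2159.5 and 2679 CPM of histone RNA, all above the uncultured ones, while untreated and day-6 libraries overlap.

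By class, H1 and H2B genes held the largest sums in the first set. H1 genes summed to 242 ± 121 CPM in untreated, 450.3 ± 108 CPM in day-6 and 346 ± 40.0 CPM in day-10 HSCs (SD, n = 4, 4 and 6). H2B genes summed to 245 ± 78.3, 429 ± 53.9 and 369.6 ± 38.9 CPM in the same order. In the culture set all 5 classes were higher without overlap between groups, from 3.00 times for H2A to 4.09 times for H3 in the ratio of means. H3 genes made up 8.68% ± 0.986 of the histone CPM in cultured and 7.35% ± 1.68 in uncultured HSCs, but 3.67% ± 0.620, 3.88% ± 0.455 and 3.67% ± 0.427 in untreated, day-6 and day-10 HSCs. H4 genes made up 15.7% ± 0.585 in cultured and 15.2% ± 1.94 in uncultured HSCs, against 9.82% ± 1.35, 9.61% ± 0.128 and 9.18% ± 0.565 in untreated, day-6 and day-10 HSCs. These shares were not tested between the sets.

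At day 6 after 5-FU, a larger share of histone genes than of all genes was called higher in HSCs, by a margin that depended on single libraries. By edgeR's quasi-likelihood test with Benjamini-Hochberg adjustment, 25 of 54 tested members (46.3%) were higher in day-6 than in untreated HSCs, against 25.7% of all 12886 genes tested, and 1 member was lower, also against 25.7%. The median log2 fold change of the 54 was 0.93, against -0.04 over all genes. The calls included 2 of 5 tested H1 genes, 5 of 14 H2A, 10 of 15 H2B, 3 of 9 H3 and 5 of 11 H4 genes. The other 10 members were too low in this set to be tested. Of the 25 called higher, 13 had at least 50% unique reads. On unique reads alone 17 of 35 tested members were higher, against 3197 of 11864 genes.

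Of the H1 genes, Hist1h1a and Hist1h1b rose and Hist1h1c and Hist1h1d did not pass the test. Hist1h1b, the gene of linker histone H1.5 (chromosome 13, 21779832 to 21780625, minus strand), had 134, 180.0, 139 and 216 CPM in day-6 HSCs, against 60.8, 114, 39.1 and 12.0 CPM in untreated HSCs, and rose without overlap (log2 fold change 1.57 ± 0.41 (SE), adjusted p = 0.00476). Hist1h1a, the gene of H1.1, had 47.7, 63.8, 39.6 and 77.9 CPM at day 6 and 24.5, 28.3, 16.3 and 9.17 CPM in untreated HSCs (log2 fold change 1.55 ± 0.28 (SE), adjusted p = 0.00033). Hist1h1c, the gene of H1.2, for which polyadenylated transcripts are also known, had 53.5, 55.1, 40.2 and 57.1 CPM at day 6 and 82.6, 57.3, 27.6 and 44.7 CPM in untreated HSCs, a log2 fold change of -0.05 ± 0.23 that did not pass (adjusted p = 0.878). Untreated replicate 1 was above every day-6 library for this gene. Hist1h1d, the gene of H1.3 and the member with the highest mean CPM, had 93.7, 142, 90.0 and 154 CPM at day 6 and 72.4, 140.4, 39.8 and 48.1 CPM in untreated HSCs, with overlapping groups (log2 fold change 0.67 ± 0.29 (SE), adjusted p = 0.0671).

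Among core histone genes, Hist1h3g, Hist1h4b and Hist1h2ag had the largest rises that passed. Hist1h3g, an H3 gene, had 2.79, 2.54, 0.965 and 0.921 CPM in day-6 HSCs and 0.465, 0.491, 0 and 0.143 CPM in untreated HSCs (log2 fold change 2.61 ± 0.90 (SE), adjusted p = 0.0239). Hist1h4b, an H4 gene, had 4.84, 9.32, 5.91 and 12.7 CPM at day 6 and 2.17, 2.62, 3.52 and 0 CPM in untreated HSCs (log2 fold change 2.00 ± 0.68 (SE), adjusted p = 0.0222). Hist1h2ag, an H2A gene with 17.8% unique reads, had 6.75, 7.48, 4.46 and 9.21 CPM at day 6 and 1.71, 1.64, 4.45 and 0 CPM in untreated HSCs (log2 fold change 1.87 ± 0.66 (SE), adjusted p = 0.0271). In all 3 genes the day-6 libraries lay above the untreated ones, at low levels. Leaving out single libraries ended the call of Hist1h3g (omitting 1 of untreated replicates 3 and 4 and day-6 replicates 1 and 2, adjusted p = 0.0602 to 0.0666), of Hist1h4b (without day-6 replicate 4, adjusted p = 0.0727) and of Hist1h2ag (omitting 1 of untreated replicates 1 and 2 and day-6 replicates 2 and 4, adjusted p = 0.054 to 0.0697). Better covered was the H2B gene Hist2h2bb, with 47.8, 50.8, 54.7 and 67.0 CPM at day 6 and 16.6, 32.6, 11.5 and 11.2 CPM in untreated HSCs (log2 fold change 1.62 ± 0.26 (SE), adjusted p = 0.000113). Hist1h2bg was the member that fell, to 11.4, 10.2, 10.1 and 12.1 CPM at day 6 against 20.6, 17.8, 11.5 and 21.9 CPM in untreated HSCs (log2 fold change -0.72 ± 0.27 (SE), adjusted p = 0.0352), with untreated replicate 3 inside the day-6 range. Its call was lost without any 1 of untreated replicates 1, 2 and 4 or day-6 replicates 1, 2 and 3 (adjusted p = 0.0541 to 0.0968). Of the reads of Hist1h2bg, 36.4% were unique.

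For each other class, the gene with the highest mean CPM follows. Hist2h2aa1 had 68.0, 95.9, 60.5 and 85.1 CPM at day 6 and 81.2, 73.5, 23.5 and 49.3 CPM in untreated HSCs (log2 fold change 0.44 ± 0.26 (SE), adjusted p = 0.172). Hist1h2be, the H2B gene with the highest mean CPM, had 36.7, 49.5, 33.9 and 48.1 CPM at day 6 and 43.1, 37.3, 21.9 and 35.0 CPM in untreated HSCs (log2 fold change 0.29 ± 0.19 (SE), adjusted p = 0.208). Both overlapped between groups and did not pass. The 5 annotated exons of Hist1h2be total 2510 bases. Per kb of exon its level over all 30 libraries was 22.4 CPM per kb, under 85.8 for Hist1h2bj and 79.6 for Hist2h2bb. Hist1h4d, the leading H4 gene, rose to 42.5, 55.1, 40.1 and 55.3 CPM at day 6, against 30.7, 39.9, 21.3 and 15.6 CPM in untreated HSCs (log2 fold change 0.84 ± 0.23 (SE), adjusted p = 0.00574). Hist2h3c2, the leading H3 row, had 12.6, 14.3, 11.6 and 14.1 CPM at day 6 and 9.30, 6.71, 4.08 and 0 CPM in untreated HSCs, without overlap and with 0 unique reads, and did not pass (adjusted p = 0.111).

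The count of 25 depended on single libraries. It was 15 without untreated replicate 4 (27.3% of members tested, against 23.3% of all genes), 15 without day-6 replicate 4 (26.8% against 22.8%), 17 without untreated replicate 3, the library with granulocyte reads (30.4% against 23.2%), and 17 without day-6 replicate 2 (30.9% against 22.8%). Without untreated replicate 4 or day-6 replicate 4, the share of members was thus close to that of all genes. Erythroid markers summed to 26.2 to 46.6 CPM at day 6 against 1676 to 4162 CPM in untreated HSCs, with 6 of 7 called lower and 1 higher, and Slc4a1 at 0 in all day-6 libraries. Macrophage markers summed to 29.3 to 455 CPM at day 6 and 20.8 to 38.3 CPM in untreated HSCs, with 7 of 7 called higher. Intron reads made up 56.2% to 58.0% of gene reads at day 6 and 63.7% to 66.7% in untreated HSCs. The part of these differences in the result was not tested.

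Genes that copy DNA and handle histones were higher in the same libraries. All 27 S phase genes found in the files (of 28 listed) were higher at day 6, for example Rrm1, a subunit of ribonucleotide reductase (log2 fold change ± SE here and below, 1.92 ± 0.15, adjusted p = 2.2e-07), and Mcm5, a subunit of the replicative helicase (1.81 ± 0.15, adjusted p = 4.2e-07). Of 19 histone chaperone and assembly genes, 16 were higher and 1 was lower, Chaf1a of the assembly factor CAF-1 by 1.68 ± 0.14, adjusted p = 4.6e-07 and Nap1l1, an H2A-H2B chaperone, by 1.10 ± 0.10, adjusted p = 1.0e-06, with Atrx the lower one (-0.25 ± 0.08, adjusted p = 0.0117). Of 22 genes for histone mRNA transcription and processing, 14 were higher and 3 were lower. Slbp averaged 113 ± 19.0 CPM at day 6 and 55.7 ± 13.7 CPM in untreated HSCs (SD, n = 4 each; log2 fold change 1.02 ± 0.17, adjusted p = 0.000119). Eri1, a nuclease that trims histone mRNA ends, was higher (0.81 ± 0.10, adjusted p = 6.9e-06), and the terminal uridylyl transferases Zcchc6 (-0.59 ± 0.11, adjusted p = 0.000313) and Zcchc11 (-0.28 ± 0.08, adjusted p = 0.0109) and the transcription factor Hinfp (-0.28 ± 0.11, adjusted p = 0.046) were lower. Mki67, a marker of cycling cells, averaged 608 ± 27.2 CPM at day 6 and 167 ± 75.5 CPM in untreated HSCs (log2 fold change 1.87 ± 0.22, adjusted p = 6.9e-06).

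Most replication-independent variants, which are made outside S phase as well, were higher. Of 11, 8 were higher and 1 was lower at day 6. H2afz, the H2A.Z gene, was higher (1.45 ± 0.12, adjusted p = 4.6e-07), as was Cenpa, the centromeric H3 (2.17 ± 0.23, adjusted p = 2.7e-06), and H3f3a (0.49 ± 0.06, adjusted p = 6.1e-06). H3f3b, which encodes the same H3.3 protein as H3f3a, averaged 295 ± 4.39 CPM at day 6 and 563 ± 80.6 CPM in untreated HSCs and was the member of this list that fell (-0.93 ± 0.10, adjusted p = 2.4e-06).

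The day-10 HSCs lay between the other groups of the first set in summed histone RNA (means of 717, 1240.5 and 1013 CPM in untreated, day-6 and day-10 HSCs), with overlap. In day-10 against untreated HSCs 12 of 54 tested members (22.2%) were higher, against 19.9% of all genes tested, and 0 were lower, against 18.1%. With all libraries, the share of higher members is close to that of all genes and is no result about histone genes. The count was 21 without untreated replicate 2 (38.2% of members, against 18.1% of all genes), 7 without untreated replicate 3 (12.5% against 15.8%) and 5 without untreated replicate 4 (9.09% against 16.1%). The median log2 fold change was 0.67, against -0.004 over all genes. Of the 12 called, 7 had at least 50% unique reads. On unique reads alone 10 of 35 tested members were higher, against 2315 of 11864 genes. Of the 12 called on total reads, 9 were H2B genes, of 15 H2B genes tested. Among these, Hist1h2bb, Hist1h2bf, Hist1h2bh, Hist1h2bj, Hist1h2bm and Hist1h2bn each lost the call when certain single libraries were left out. Macrophage markers summed to 76.0 to 202 CPM at day 10 and 20.8 to 38.3 CPM in untreated HSCs, with 3 of 7 called higher. Erythroid markers summed to 29.4 to 106 CPM at day 10 and 1676 to 4162 CPM in untreated HSCs, with 4 of 7 called lower and 1 higher. Their part in these calls was not tested.

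Hist1h4i, an H4 gene, had a lowest value of 2.44, a median of 3.92 and a highest value of 5.12 CPM at day 10, against 2.17, 2.45, 1.11 and 0.430 CPM in untreated HSCs (log2 fold change 1.32 ± 0.41 (SE), adjusted p = 0.0185). Hist1h2bh, an H2B gene, had a lowest value of 1.93, a median of 2.80 and a highest value of 5.22 CPM at day 10 and 1.24, 1.96, 1.67 and 0.573 CPM in untreated HSCs (log2 fold change 1.19 ± 0.39 (SE), adjusted p = 0.026). In both genes the lowest day-10 library fell inside the untreated range. Hist1h4i had 29.3% and Hist1h2bh 77.5% unique reads. The call of Hist1h4i was lost without untreated replicate 3 (adjusted p = 0.0551), and that of Hist1h2bh without untreated replicate 1 or 4 or day-10 replicate 3 (adjusted p = 0.0504 to 0.0847). Hist2h2bb had a lowest value of 32.9, a median of 36.4 and a highest value of 45.9 CPM at day 10, all above the 16.6, 32.6, 11.5 and 11.2 CPM of untreated HSCs (log2 fold change 1.10 ± 0.24 (SE), adjusted p = 0.00258). Hist1h1a rose at day 10 as well, to a lowest value of 30.7, a median of 37.9 and a highest value of 50.7 CPM (log2 fold change 0.95 ± 0.26 (SE), adjusted p = 0.0107).

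Between day 10 and day 6, 0 members were called in either direction by edgeR's quasi-likelihood test, against 14.7% of all genes called higher and 15.9% called lower. At an unadjusted p under 0.05 there were 2 members higher and 4 lower, a cutoff at which the share of all genes was not counted. DESeq2 called 0 members higher and 1 lower, against 2087 and 2154 of all 12857 genes. The median log2 fold change of members was -0.27, against -0.02 over all genes. With only these 2 groups in the fit, 1 of 53 tested members was higher and 6 were lower, against 1870 and 2088 of all 12537 genes. Both shares of members were below those of all genes. In the fit of all 3 groups 25 of 27 S phase genes fell, such as Mcm3 of the replicative helicase (-0.77 ± 0.09, adjusted p = 6.9e-05), and 15 of 19 chaperone and assembly genes fell, such as Chaf1b of CAF-1 (-0.67 ± 0.09, adjusted p = 9.8e-05). Of the processing genes 9 of 22 fell, Slbp among them (-0.58 ± 0.15, adjusted p = 0.00816), and Zcchc6 rose (0.49 ± 0.10, adjusted p = 0.00209). Summed S phase RNA ran between 3005 and 4507 CPM at day 10, below all day-6 libraries at 5589 to 7181 CPM, while summed histone RNA overlapped. Whether histone members differ from S phase genes in this step was not tested. Both comparisons with untreated HSCs share the untreated libraries, and both comparisons with day-6 HSCs share the day-6 libraries.

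**Figure D2:**
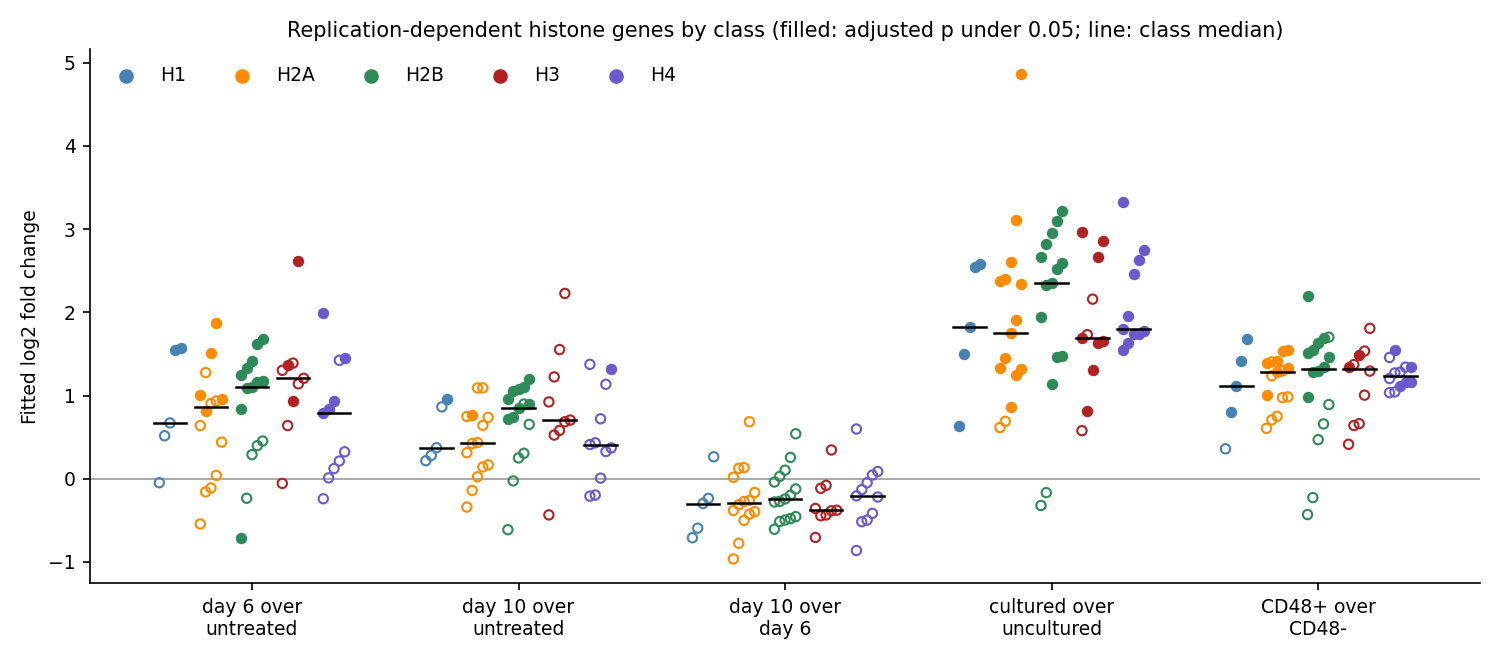
Fitted log2 fold change of each tested member, by class and comparison, with the named condition over the one under it. Filled points passed an adjusted p of 0.05 and black lines are class medians; the day 10 over day 6 points are all open, and 50 of 57 points are filled in culture.

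A single day in culture went with higher levels of most members. Of 57 tested members, 50 (87.7%) were higher in cultured than in uncultured HSCs, against 33.8% of all 12386 genes tested, and 0 were lower, against 33.8% (edgeR's quasi-likelihood test). At an unadjusted p under 0.05 still 0 were lower, with the share of all genes at that cutoff not counted. DESeq2 also gave 0 lower, against 4232 of all 12374 genes. The median log2 fold change was 1.82, against -0.01 over all genes. All 5 tested H1 genes and all 11 tested H4 genes were called, with 13 of 15 H2A, 13 of 15 H2B and 8 of 11 H3 genes. For 48 members the cultured libraries all lay above the uncultured ones, against 30.9% of all genes. Of the 50 called, 23 had at least 50% unique reads. On unique reads alone 38 of 43 tested members were higher, against 3810 of 11422 genes.

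Hist1h2ah, an H2A gene with 44.5% unique reads, was almost undetected in uncultured HSCs. In untreated HSCs of the first set it had 0.155, 1.96, 0.371 and 0 CPM. It had 3.54, 3.35, 3.60 and 5.11 CPM in cultured HSCs, against 0, 0, 0.449 and 0 CPM in uncultured HSCs. That is 114 against 3 reads, a ratio per exon read of 30.7 with a 95% exact counting interval from 10.3 to 151 (log2 fold change 4.87 ± 0.69 (SE), adjusted p = 4.4e-05). Such an interval covers counting error only. Hist1h4k, an H4 gene with 14.0% unique reads, had 21.6, 15.3, 22.4 and 13.1 CPM in cultured HSCs and 0, 3.41, 3.59 and 0 CPM in uncultured HSCs (log2 fold change 3.33 ± 0.64 (SE), adjusted p = 0.000523). Hist1h2bm, an H2B gene with 85.1% unique reads, had 51.3, 44.5, 43.5 and 36.9 CPM in cultured HSCs and 5.34, 4.15, 7.79 and 1.91 CPM in uncultured HSCs (log2 fold change 3.22 ± 0.27 (SE), adjusted p = 4.6e-07). No cultured library of these genes reached down to an uncultured one.

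The members with high mean CPM rose as well. Hist1h1d had 213, 192, 198 and 182 CPM in cultured HSCs and 60.3, 39.2, 76.5 and 50.6 CPM in uncultured HSCs (log2 fold change 1.82 ± 0.15 (SE), adjusted p = 4.7e-07). Hist1h4d had 168, 146, 135 and 131 CPM in cultured and 47.8, 49.2, 43.6 and 32.1 CPM in uncultured HSCs (log2 fold change 1.78 ± 0.13 (SE), adjusted p = 1.3e-07). Hist1h2be had 121, 109, 98.8 and 100.3 CPM in cultured and 40.9, 43.7, 41.2 and 32.1 CPM in uncultured HSCs (log2 fold change 1.47 ± 0.11 (SE), adjusted p = 1.5e-07). Each of these 3 genes rose with a gap between the groups. Hist2h3c2 rose to 76.7, 62.5, 83.3 and 67.0 CPM in cultured HSCs, against 17.1, 4.44, 14.5 and 2.22 CPM in uncultured HSCs (log2 fold change 2.96 ± 0.39 (SE), adjusted p = 2.2e-05), and Hist2h2aa1 to 176, 143, 140.4 and 123 CPM, against 65.3, 67.1, 67.4 and 50.6 CPM in uncultured HSCs (log2 fold change 1.24 ± 0.12 (SE), adjusted p = 1.6e-06).

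The 3 H1 genes below rose by different amounts. Hist1h1a had 86.2, 80.4, 88.2 and 75.0 CPM in cultured HSCs, against 16.5, 13.6, 21.3 and 4.45 CPM in uncultured HSCs (log2 fold change 2.58 ± 0.28 (SE), adjusted p = 4.3e-06), and Hist1h1b had 205, 203, 162 and 177 CPM in cultured HSCs, against 48.9, 10.5, 50.5 and 21.3 CPM in uncultured HSCs (log2 fold change 2.55 ± 0.34 (SE), adjusted p = 2.5e-05). Hist1h1c had 79.7, 67.9, 77.6 and 72.5 CPM in cultured and 46.8, 60.7, 51.5 and 35.9 CPM in uncultured HSCs, a smaller rise that also passed (log2 fold change 0.63 ± 0.14 (SE), adjusted p = 0.00112). The 7 members that did not pass were Hist1h2ac, Hist1h2an, Hist1h2bg, Hist1h3h, Hist1h3i, Hist2h2be and Hist2h3b. The difference between H1 genes was not tested.

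**Figure D3:**
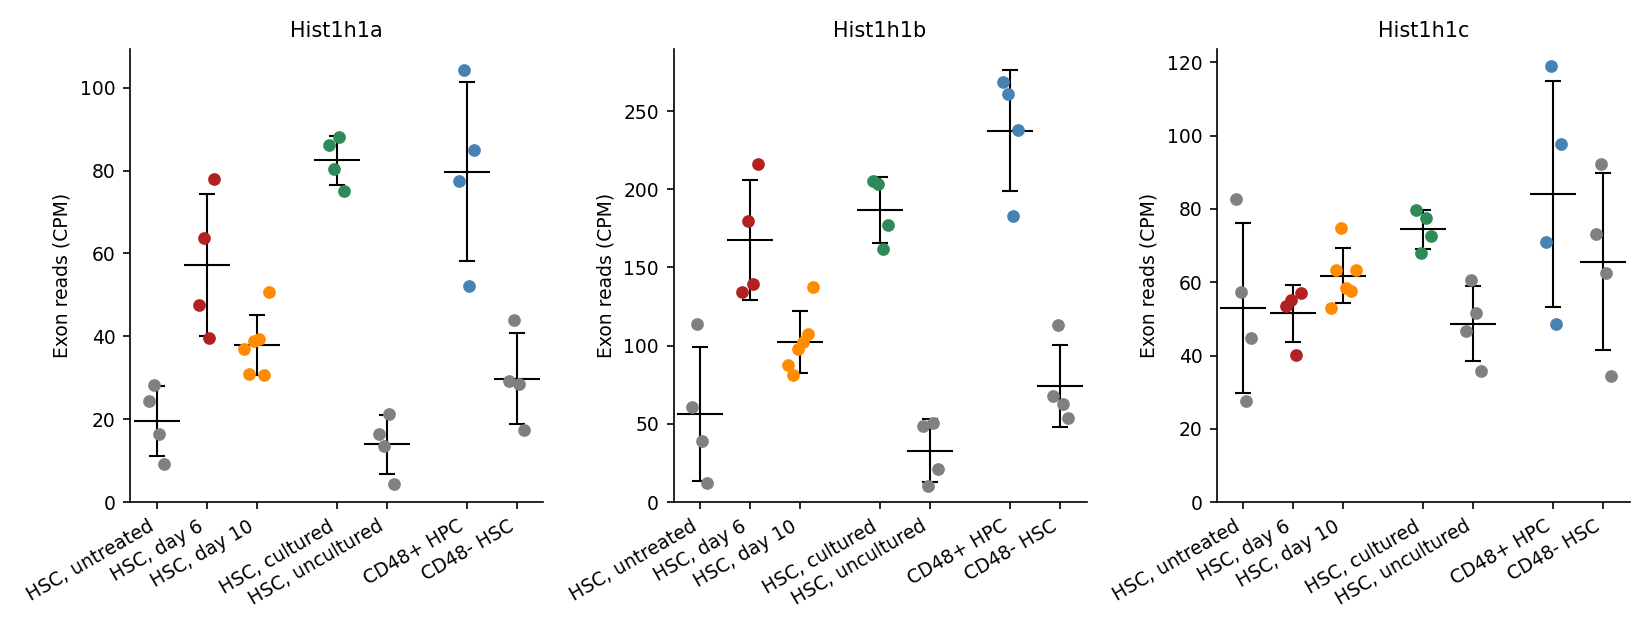
CPM of 3 H1 genes in each library, with mean and SD per group as the line and bars. Hist1h1a and Hist1h1b are higher at day 6, in cultured HSCs and in CD48+ HPCs without overlap with their comparison group, while Hist1h1c overlaps at day 6 and between CD48+ and CD48- cells.

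All 27 S phase genes were higher in cultured HSCs, for example Tyms (2.45 ± 0.08, adjusted p = 6.0e-10) and Pcna (1.91 ± 0.07, adjusted p = 7.9e-10), an enzyme of thymidylate synthesis and the sliding clamp of DNA polymerase. Of 19 chaperone and assembly genes 15 were higher and 1, Atrx, was lower (-0.22 ± 0.07, adjusted p = 0.014). Nasp, an H3-H4 and H1 chaperone, averaged 91.7 ± 6.57 CPM in cultured and 27.0 ± 1.71 CPM in uncultured HSCs (1.79 ± 0.09, adjusted p = 7.1e-09). Of 22 processing genes 17 were higher, with Slbp at 106 ± 4.58 CPM in cultured and 48.4 ± 7.07 CPM in uncultured HSCs (1.16 ± 0.10, adjusted p = 5.7e-07), and Zcchc11 and Zcchc6 were lower (-0.62 ± 0.07, adjusted p = 9.4e-06; -0.84 ± 0.10, adjusted p = 1.5e-05). Of 11 variants 8 were higher and 0 lower, H2afz by 1.79 ± 0.10, adjusted p = 1.2e-08. Mki67 averaged 618 ± 43.4 CPM in cultured and 184 ± 79.8 CPM in uncultured HSCs (log2 fold change 1.77 ± 0.23, adjusted p = 2.2e-05).

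HSC markers summed to 1482 to 1859 CPM in cultured and 2961 to 3212 CPM in uncultured HSCs, with 7 of 8 called lower and 1 higher. Erythroid markers summed to 25.4 to 55.3 CPM in cultured and 20.4 to 3129 CPM in uncultured HSCs, and intron reads made up 56.2% to 56.5% and 65.4% to 67.6% of gene reads in the same order. The count of 50 lay between 47 and 52 with any 1 library left out, and was 52, 51 and 49 without uncultured replicates 1, 3 and 4, which held the erythroid or granulocyte reads. Uncultured replicate 2, with 20.4 CPM of erythroid and 2.96 CPM of granulocyte markers, had 632 CPM of summed histone RNA, inside the uncultured range. The part of these markers in the result was not tested.

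At day 10, CD48+ HPCs held more RNA of many histone genes than CD48- HSCs. Of 58 tested members, 28 (48.3%) were higher in CD48+ HPCs, against 14.0% of all 12719 genes tested, and 0 were lower, against 12.5% (edgeR's quasi-likelihood test). At an unadjusted p under 0.05 also 0 were lower, with the share of all genes at that cutoff not counted. DESeq2 gave 0 lower, against 1872 of all 12705 genes. The median log2 fold change was 1.29, against -0.01 over all genes, and 56 of 58 fitted values were above 0. The calls were 4 of 5 H1, 7 of 15 H2A, 10 of 16 H2B, 2 of 10 H3 and 5 of 12 H4 genes. Of the 28, 15 had at least 50% unique reads. On unique reads alone 23 of 44 tested members were higher, against 1622 of 11713 genes.

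Hist1h2bh had 5.96, 6.20, 2.98 and 8.10 CPM in CD48+ HPCs and 0.943, 2.37, 1.31 and 0.277 CPM in CD48- HSCs (log2 fold change 2.20 ± 0.52 (SE), adjusted p = 0.00998). Hist1h2bn, another H2B gene, had 38.7, 43.0, 27.8 and 40.6 CPM in CD48+ HPCs and 11.8, 19.1, 11.4 and 3.74 CPM in CD48- HSCs (log2 fold change 1.69 ± 0.34 (SE), adjusted p = 0.00458). Hist1h1b had 268, 261, 183 and 238 CPM in CD48+ HPCs and 67.6, 113, 63.0 and 53.9 CPM in CD48- HSCs (log2 fold change 1.68 ± 0.21 (SE), adjusted p = 0.000349). In these 3 genes all CD48+ libraries were above all CD48- ones. Hist1h2bn had 35.5% unique reads. Hist1h1d (log2 fold change 1.11 ± 0.28 (SE), adjusted p = 0.0139), Hist1h4d (log2 fold change 1.17 ± 0.30 (SE), adjusted p = 0.0147) and Hist1h2be (log2 fold change 0.99 ± 0.29 (SE), adjusted p = 0.0287) passed with overlapping groups, CD48+ replicate 3 being the low library. The call of Hist1h2be was lost without any 1 of CD48- replicates 1, 3 and 4 or CD48+ replicates 1, 2 and 4 (adjusted p = 0.0504 to 0.0781). Hist1h1c had 70.9, 119, 48.5 and 97.8 CPM in CD48+ HPCs and 73.1, 92.3, 62.4 and 34.5 CPM in CD48- HSCs and did not pass (log2 fold change 0.36 ± 0.30 (SE), adjusted p = 0.397).

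All 27 S phase genes were higher in CD48+ HPCs, Rrm2 by 1.50 ± 0.16, adjusted p = 0.000147, with 13 of 19 chaperone and assembly genes higher and 0 lower, Asf1b by 1.48 ± 0.12, adjusted p = 3.5e-05. Of 22 processing genes 8 were higher and 1 lower, with Slbp at 97.2 ± 4.70 CPM in CD48+ HPCs and 59.6 ± 5.47 CPM in CD48- HSCs (0.71 ± 0.09, adjusted p = 0.000443) and Zcchc6 the lower one (-0.36 ± 0.09, adjusted p = 0.0164). Of 11 variants 6 were higher, and H1f0, a linker histone of slowly dividing cells, was lower, at 55.2 ± 11.2 CPM in CD48+ HPCs and 92.9 ± 28.4 CPM in CD48- HSCs (-0.75 ± 0.20, adjusted p = 0.0184). Mki67 averaged 686 ± 21.8 CPM in CD48+ HPCs and 346 ± 80.4 CPM in CD48- HSCs (log2 fold change 1.00 ± 0.14, adjusted p = 0.000652). Summed S phase RNA did not overlap, at 5171 to 6369 CPM in CD48+ HPCs and 1873 to 3114 CPM in CD48- HSCs, whereas summed histone RNA did.

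The count of 28 lay between 19 and 38 with any 1 library left out (32.8% and 65.5% of members, against 12.7% and 14.4% of all genes). It was 20 without CD48- replicate 3, the library with 5659.6 CPM of erythroid markers, and 37 without CD48+ replicate 3, the library with 793 CPM of macrophage markers. Without CD48- replicates 1, 2 and 4 it was 20, 38 and 21, and without CD48+ replicates 1, 2 and 4 it was 22, 19 and 20. With any 1 library left out, between 1116 and 1845 of all genes were called higher. Macrophage markers summed to 118 to 793 CPM in CD48+ HPCs and 54.6 to 218 CPM in CD48- HSCs, with 6 of 7 called higher. Granulocyte markers summed to 5.66 to 39.4 CPM in CD48+ HPCs and 0.888 to 2.25 CPM in CD48- HSCs, without overlap and with 2 of 2 tested genes higher, and mast cell markers to 6.18 to 14.6 CPM and 0 to 3.07 CPM in the same order, with the 1 gene tested higher. HSC markers summed to 1436 to 1820.0 CPM in CD48+ HPCs and 2593 to 3135 CPM in CD48- HSCs, with 8 of 8 called lower. The part of these markers in the result was not tested.

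The day-6 and culture effects were then compared directly, each within its own set of libraries. Of 62 members tested for the difference, 8 (12.9%) had a smaller rise at day 6 than in culture, against 6.36% of all 13468 genes tested, and 0 had a larger one, against 8.77% (edgeR's quasi-likelihood test in a fit of all 30 libraries). At an unadjusted p under 0.05 there were 24 smaller and 0 larger. The share of all genes at that cutoff was not counted, so these counts alone are no result about histone genes. DESeq2 gave 13 and 0, against 953 and 1332 of all 13454 genes it tested. The median difference was -1.13 in log2 units, against 0.01 over all genes, and 2 of 62 fitted differences were above 0. The 2 sets differ in libraries and in treatment, so what the difference comes from cannot be told apart.

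Hist2h4, an H4 gene whose stem-loop was given with the sequences, differed by the widest margin among those called. It had 3.23, 2.12, 3.02 and 4.30 CPM at day 6 and 2.95, 5.89, 1.85 and 1.86 CPM in untreated HSCs, but 17.6, 14.0, 15.9 and 13.1 CPM in cultured and 3.20, 2.67, 3.14 and 0.953 CPM in uncultured HSCs. Its level thus overlapped between the first pair of groups and not between the second (difference of log2 fold changes -2.59 ± 0.51, adjusted p = 0.000855). Hist1h2ao, an H2A gene, had 11.1, 11.4, 11.9 and 18.9 CPM at day 6 and 7.13, 10.8, 4.26 and 4.30 CPM in untreated HSCs, and 17.8, 16.7, 11.1 and 18.0 CPM in cultured and 2.85, 2.52, 1.50 and 0.635 CPM in uncultured HSCs (difference -2.08 ± 0.51, adjusted p = 0.00612), and on unique reads alone its difference was -1.44 and did not pass (adjusted p = 0.0828). For Hist1h2bm the difference was -1.86 ± 0.51 (adjusted p = 0.013). The other 5 were Hist1h2bj, Hist2h2ac, Hist2h2bb, Hist1h4n and Hist1h2be, between -1.55 and -1.15. Of the 3953 reads of Hist1h4n 0 were unique, so its difference is uncertain as that of 1 gene. Without untreated replicate 2 the calls of Hist1h2bm and Hist1h2bj were lost (adjusted p = 0.0744 and 0.0501), and that of Hist1h2be was lost without untreated replicate 1 (adjusted p = 0.0547). The call of Hist1h4n was lost without any 1 of untreated replicate 2, day-6 replicates 1 and 3, uncultured replicate 4 and cultured replicate 1 (adjusted p = 0.0504 to 0.0691), and that of Hist2h2ac without any 1 of untreated replicates 1 and 2, day-6 replicate 1 and uncultured replicates 2 and 4 (adjusted p = 0.0579 to 0.0975). Of 27 S phase genes 2 differed, Pcna (-0.80 ± 0.18, adjusted p = 0.00226) and Tyms (-0.95 ± 0.24, adjusted p = 0.00612), both with the smaller rise at day 6. The count of 8 was 4 without untreated replicate 2 (6.45% of members, against 4.97% of all genes), a share near that of all genes. It was 14 without untreated replicate 4 (22.6% against 4.76%) and 16 without uncultured replicate 3 (25.8% against 6.25%).

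**Figure D4:**
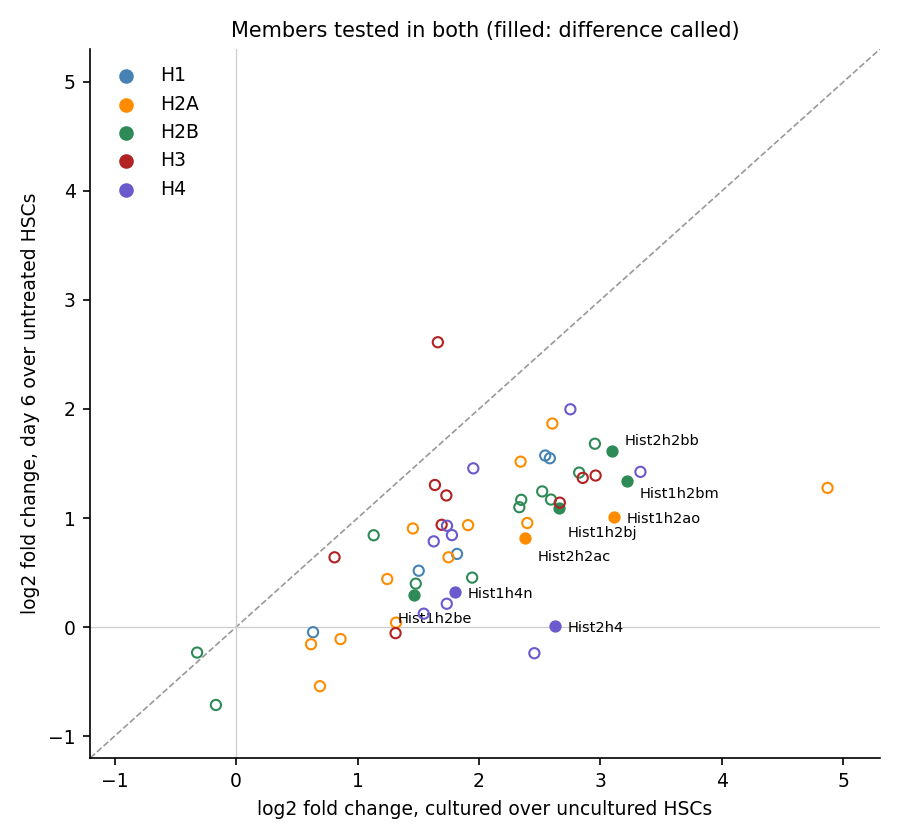
Fitted log2 fold change of the 54 members tested in both sets, cultured over uncultured HSCs on the horizontal axis and day 6 over untreated HSCs on the vertical axis. The dashed line marks equal change; named, filled points are the 8 members whose difference passed an adjusted p of 0.05, all under the line.

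The day-6, culture and CD48 comparisons share no library, so their calls can be set side by side. Of 54 members tested in all 3, 19 were higher in all 3, against 11.1% of the 12161 genes tested in all 3. These are 76.0% of those called at day 6, 38.0% of those called in culture and 67.9% of those called in CD48+ HPCs. They were Hist1h1a and Hist1h1b, the H2A genes Hist1h2ab, Hist1h2ag, Hist1h2ak, Hist1h2ao and Hist2h2ac, the H2B genes Hist1h2bb, Hist1h2bf, Hist1h2bh, Hist1h2bj, Hist1h2bk, Hist1h2bl, Hist1h2bm, Hist1h2bn and Hist2h2bb, and the H4 genes Hist1h4b, Hist1h4c and Hist1h4d. Of these, Hist1h2ab, Hist1h2ag, Hist1h2ak, Hist1h2ao, Hist2h2ac, Hist1h2bh, Hist1h2bl, Hist1h4b and Hist1h4c each lost the call in at least 1 of the 3 comparisons when certain single libraries were left out. On unique reads alone the day-6 calls of Hist1h2bf (adjusted p = 0.051), Hist1h2ag (adjusted p = 0.0635), Hist1h2bl (adjusted p = 0.0944) and Hist1h4c (adjusted p = 0.0736) were lost, and so was the day-10 call of Hist1h2bf (adjusted p = 0.257). The 4 called in none were Hist1h2ac, Hist1h2an, Hist1h3i and Hist2h2be. By position, 10 of 19 tested members of 1 block of the Hist1 cluster (chr13:21715713-22043658) were higher at day 6, 17 of 20 in culture and 12 of 22 in CD48+ HPCs. In the other block (chr13:23531044-23764412) the counts were 13 of 27, 25 of 27 and 12 of 28. Over all genes tested, 25.7%, 33.8% and 14.0% were called higher in the same order. A difference between the blocks was not tested.

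Promoters of members that moved together are shown for an H1, an H2A and an H4 gene that were higher in all 3 comparisons, and for Hist1h4b, whose window holds none of the motifs searched. Each window runs 250 bases before to 50 after the start of the RefSeq gene on GRCm38.p6, 5′ to 3′ on the gene's strand, with 3 motifs in capitals wherever they lie on either strand (the TATA box as TATAAA, the CCAAT box, and the octamer as ATTTGCAT), so that some appear as their reverse complement. They lie at chr13:21780576-21780875 (minus) for Hist1h1b, chr13:23750838-23751137 (plus) for Hist1h2ab, chr13:23581318-23581617 (plus) for Hist1h4d and chr13:23756687-23756986 (plus) for Hist1h4b.
Hist1h1b: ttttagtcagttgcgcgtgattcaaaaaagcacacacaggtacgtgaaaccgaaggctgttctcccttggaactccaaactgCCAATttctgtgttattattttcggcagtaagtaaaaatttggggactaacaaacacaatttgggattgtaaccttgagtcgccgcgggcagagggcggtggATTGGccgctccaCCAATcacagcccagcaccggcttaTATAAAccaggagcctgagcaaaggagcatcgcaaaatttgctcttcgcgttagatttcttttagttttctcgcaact
Hist1h2ab: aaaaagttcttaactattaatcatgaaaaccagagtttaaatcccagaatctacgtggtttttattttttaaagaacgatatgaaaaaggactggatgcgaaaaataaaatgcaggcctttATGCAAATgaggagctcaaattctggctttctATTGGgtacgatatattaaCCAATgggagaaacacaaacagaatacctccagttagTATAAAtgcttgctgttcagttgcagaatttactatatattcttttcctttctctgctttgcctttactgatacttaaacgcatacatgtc
Hist1h4d: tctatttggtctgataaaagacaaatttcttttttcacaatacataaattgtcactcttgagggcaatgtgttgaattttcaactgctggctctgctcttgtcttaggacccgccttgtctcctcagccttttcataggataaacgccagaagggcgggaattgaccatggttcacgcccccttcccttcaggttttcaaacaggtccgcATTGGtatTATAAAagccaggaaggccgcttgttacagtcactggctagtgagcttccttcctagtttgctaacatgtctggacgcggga
Hist1h4b: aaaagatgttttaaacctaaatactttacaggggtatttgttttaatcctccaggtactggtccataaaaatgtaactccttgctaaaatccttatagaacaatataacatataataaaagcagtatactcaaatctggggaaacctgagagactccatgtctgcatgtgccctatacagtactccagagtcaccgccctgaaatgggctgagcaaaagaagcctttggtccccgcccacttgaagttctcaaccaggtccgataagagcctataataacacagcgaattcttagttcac

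RefSeq windows matched 59 members. CCAAT, the box bound by NF-Y, was in 51 of them (86.4%), against 37.4% of all 32851 windows, and divided by class. It was in all 48 windows of H1, H2A, H2B and H3 genes and in 3 of 11 windows of H4 genes. TATAAA was in 54.2% of member windows, against 13.6% of all windows. ATTTGCAT, the octamer bound by OCT1, was in 6 H2A and 5 H2B windows (18.6% of members), against 1.74% of all windows, and in 0 windows of the other classes. For 18 members the window overlapped that of another member, since H2A and H2B genes often start back to back, so that these windows are not independent. Hist2h4, Hist2h2be, Hist1h2bc, Hist1h3a and Hist1h3f had no entry. A match is a description of letters and not a measured site.

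Of 5 histone genes known in man or mouse for polyadenylated transcripts as well (Hist1h1c, Hist1h2bc, Hist2h2be, Hist4h4 and Hist3h2a), 1 was higher at day 6, 1 at day 10, 4 in cultured HSCs and 0 in CD48+ HPCs, against 25.7%, 19.9%, 33.8% and 14.0% of all genes. A single call of 5 genes is no more than the share of all genes at day 6, and about that share at day 10. Hist2h2be, an H2B gene with 99.6% unique reads, was called in none of the 5 comparisons. It had 3.89, 4.22, 3.44 and 6.35 CPM in cultured and 5.87, 2.96, 7.49 and 6.51 CPM in uncultured HSCs (log2 fold change -0.32 ± 0.33 (SE), adjusted p = 0.407). In CD48+ HPCs it had 8.48, 7.73, 8.63 and 8.55 CPM, against 8.61, 14.6, 10.6 and 11.4 CPM in CD48- HSCs (log2 fold change -0.43 ± 0.20 (SE), adjusted p = 0.139). Hist4h4 rose in culture (log2 fold change 1.73 ± 0.34 (SE), adjusted p = 0.000593), as did Hist3h2a (log2 fold change 0.86 ± 0.17 (SE), adjusted p = 0.000699), where Hist3h2a had 0.96% unique reads.

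Hist1h2bc, the remaining gene of that list, is among the few members with more than 1 annotated exon, and its reads across the splice junction were looked at after its values were seen. Exon-exon reads of this H2B gene came to 1066 over all libraries, all unique. Scaled to the exon reads of each library in the same way as CPM but without TMM (RPM), they were 12.5, 4.65, 5.55 and 8.34 in day-6 HSCs, against 2.82, 2.37, 0.576 and 1.75 in untreated HSCs, and every day-6 library was above every untreated one (exact permutation test, two-sided, p = 0.0286, the smallest these groups allow; 0.0536 adjusted over 15 tests). Day-10 HSCs had a lowest value of 5.11, a median of 6.15 and a highest value of 7.72, again above the untreated libraries (exact permutation p = 0.00952, adjusted 0.0536). Cultured HSCs had 0.549, 0.839, 0.304 and 0.134, against 0.187, 1.51, 0.465 and 0.491 in uncultured HSCs, with overlap (exact permutation p = 0.686).

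In the CD48 set the junction reads of Hist1h2bc were 3.51, 3.78, 5.37 and 4.61 RPM in CD48+ HPCs, against 8.06, 9.72, 8.96 and 8.22 in CD48- HSCs, lower in 4 of 4 libraries without overlap (exact permutation p = 0.0286, adjusted 0.0536). As a share of the gene's exon reads they were 8.98% ± 3.11 in CD48+ HPCs and 14.6% ± 0.643 in CD48- HSCs (SD, n = 4 each). At day 6 that share was 15.4% ± 4.29, against 6.33% ± 1.74 in untreated HSCs. All exon reads of the gene gave 61.1, 47.997, 35.1 and 52.2 CPM at day 6 and 34.7, 30.9, 13.3 and 30.1 CPM in untreated HSCs (log2 fold change 0.84 ± 0.23 (SE), adjusted p = 0.00651), and 55.0, 54.0, 39.9 and 53.9 CPM in CD48+ HPCs and 57.8, 63.1, 60.5 and 56.8 CPM in CD48- HSCs (log2 fold change -0.23 ± 0.12 (SE), adjusted p = 0.174). In culture its exon reads rose on total reads (log2 fold change 1.13 ± 0.24 (SE), adjusted p = 0.000979) and did not pass on unique reads alone (log2 fold change 0.33, adjusted p = 0.285), while its intron reads were 1.10, 0.699, 1.67 and 0.669 RPM in cultured HSCs, against 110.0, 13.9, 14.2 and 25.7 in uncultured HSCs, without overlap (exact permutation p = 0.0286, adjusted 0.0536). None of the exact permutation tests passed 0.05 after adjustment. The files do not say whether counting used strand.

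**Figure D5:**
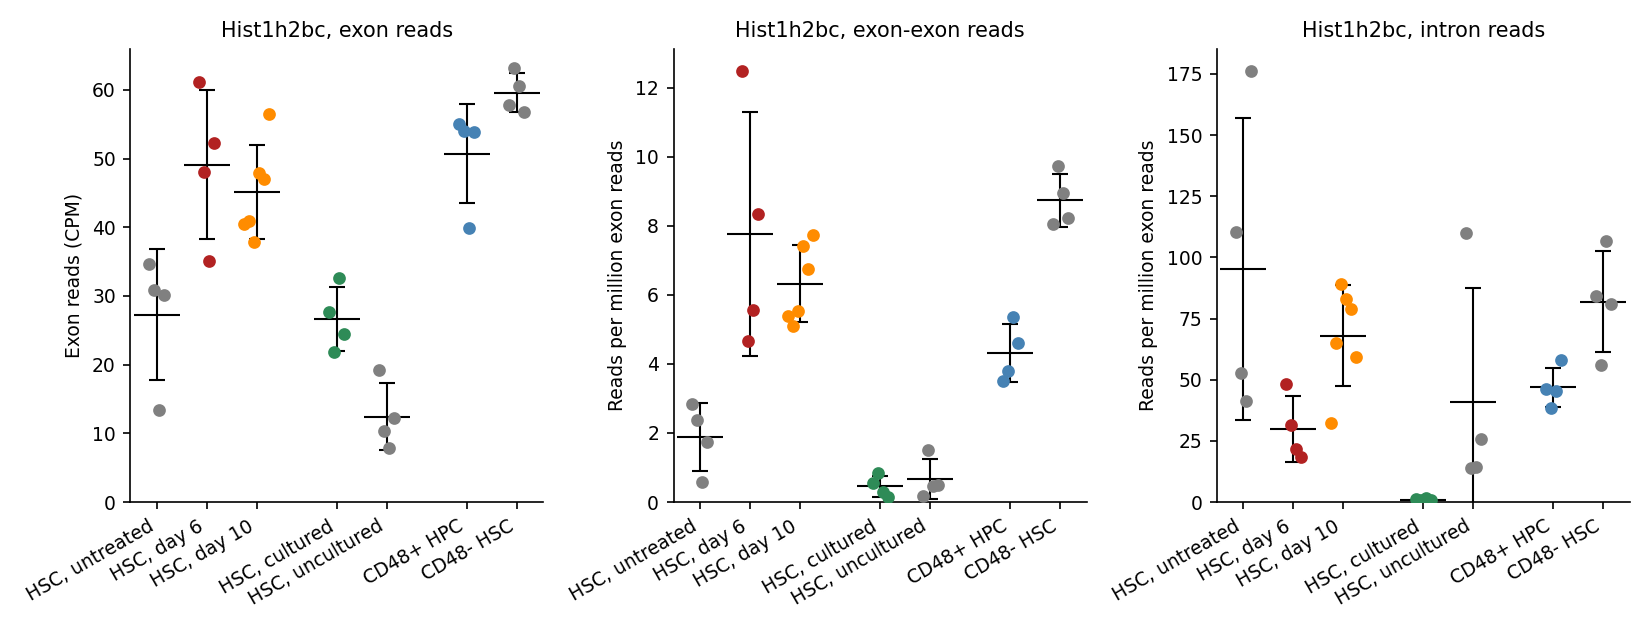
Hist1h2bc in each library as exon reads (CPM, left), exon-exon reads (middle) and intron reads (right), the last 2 in RPM of all exon reads, with mean and SD per group as the line and bars (bars stop at 0). Exon-exon reads are higher at day 6 and day 10 than in untreated HSCs, lower in CD48+ HPCs than in CD48- HSCs, and near 0 in the culture set.

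Of 3 testis-type histone genes, Hist1h1t was the member, with reads in 20 of 30 libraries. It had 0 reads in all 4 untreated libraries, 10 reads at day 6 (0.293, 0.282, 0.241 and 0.614 CPM) and 30 reads at day 10 (a lowest value of 0, a median of 0.732 and a highest value of 0.976 CPM). It was too low to be tested in any of the 5 comparisons between groups. Hist1h2aa and Hist1h2ba had 4 and 15 reads in all and were not members.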

How the data were processed

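RNA was measured in 30 libraries of 100 sorted mouse cells each. The deposited files hold, per the file headers, total and unique exon reads, intron reads and exon-exon reads as raw counts per gene entry, with the exon length in bases. Reads were mapped to mm10, per the submitters' processing notes. The sources used here do not give the aligner, the counting program or its treatment of strand and of reads with several placements. The cDNA came from a modified total-RNA method, per the labels' protocols.

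Total exon counts were summed per gene identifier. Each experiment was fitted by the quasi-likelihood F test of edgeR 4.0.16 (R 4.3.3), after filterByExpr on the groups and TMM scaling, and p-values were adjusted by Benjamini-Hochberg over all genes tested, with a threshold of 0.05. Standard errors were the fold change divided by the square root of F. The difference of the day-6 and culture effects came from 1 fit of all 30 libraries. CPM values use TMM over all libraries. Exact permutation tests were run in SciPy 1.17.1. Scripts were checked on simulated counts. Alternatives were RLE scaling, no count filter, DESeq2 1.42.0, other samples in the fit, unique reads, entries as deposited, a replicate block and leaving out each library. Named genes are the member with the highest mean CPM in each class, the 3 largest rises and falls past the threshold per comparison, short lists of testis-type and polyadenylated histone genes, and up to 3 genes per list and direction with the smallest p. Hist1h2bc junction reads and the promoters shown were chosen after values were seen. Members and lists were chosen with earlier results of these data known. Stem-loops come from GENCODE M21 transcripts and promoters from RefSeq GRCm38.p6. Some listed marker genes are not reported here and are left out of the marker sums. Coil, Rbbp4, Hira, Daxx, Cdc45 and Mpo were listed but not analysed here.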

Additional observations from a re-analysis of the deposited data

Results flagged for a closer look

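In 217 sets of values, each of 1 gene or class in 1 group of 4 or 6 libraries, 11 had a library far from the others. Chance gives about 1 in 20, so the number flagged is about that of chance, and the values below are a description only. In uncultured HSCs, replicate 4 was low in summed H4 RNA (69.9 CPM, others 108 to 114) and in Hist2h2aa1 (50.6 CPM, others 65.3 to 67.4), and replicate 3 was the 1 library with reads of Hist1h2ah (0.449 CPM) and of Hist1h1t (0.150 CPM). In day-6 HSCs, replicate 4 was high in Hist1h4i (5.22 CPM, others 3.86 to 3.96), Hist1h2ao (18.9 CPM, others 11.1 to 11.9) and Hist1h1t (0.614 CPM, others 0.241 to 0.293). In CD48+ HPCs, replicate 3 was low in Hist1h4k (4.76 CPM, others 12.3 to 13.2) and Hist1h2bc (39.9 CPM, others 53.9 to 55.0). Cultured replicate 4 was high in Hist1h2ah (5.11 CPM, others 3.35 to 3.60), and CD48- replicate 2 in Hist1h2ao (8.09 CPM, others 4.13 to 4.63).

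For 8 members the day-6 effect and the culture effect differed by the test of the difference itself. The day-6 minus culture differences of log2 fold changes were -2.59 for Hist2h4, -2.08 for Hist1h2ao, -1.86 for Hist1h2bm, -1.55 for Hist1h2bj, -1.53 for Hist2h2ac, -1.46 for Hist2h2bb, -1.45 for Hist1h4n and -1.15 for Hist1h2be. Hist1h4n had 0 unique reads.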

How the results depend on the processing

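No member's fitted change that passed reversed under any alternative run. With 1 library left out, the number of members called higher lay between 15 and 29 at day 6, 5 and 21 at day 10, 47 and 52 in culture and 19 and 38 in CD48+ HPCs. Over all genes it lay between 2969 and 3187, 2059 and 2699, 3974 and 4154, and 1116 and 1845 in the same order. The number called lower lay between 0 and 2 at day 6, 0 and 1 at day 10 and 0 and 3 for day 10 against day 6, and for the difference of day-6 and culture effects between 4 and 16. Over all genes the number lower lay between 2976 and 3156, 1938 and 2350, 1454 and 2393, and 635 and 853 in the same order. The 1 member lower at day 6 was 0 with no count filter and 0 with all 30 libraries in 1 fit, against 3006 of 17305 and 3537 of 13468 genes. DESeq2 gave 1 lower at day 10, 1 lower for day 10 against day 6 and 13 for the difference of effects. Over all genes it gave 2410 and 2154 lower of 12857, and 953 of 13454 for the difference. Only the 2 groups compared gave 1 higher and 6 lower of 53 members for day 10 against day 6, against 1870 and 2088 of 12537 genes. Unique exon reads gave 1 of 35 members lower at day 10, against 2081 of 11864 genes. In CD48+ HPCs they gave 1 of 44 members lower, against 1508 of 11713 genes. Their summed histone CPM was 893 at day 6, 707 at day 10, 1528 in cultured, 417 in uncultured HSCs and 1479 in CD48+ HPCs. The cause of these moves was not tested. A smaller share of member reads than of all exon reads was unique, at 54.9% against 81.9%. Over all genes, leaving out CD48+ replicate 1 gave 1116 higher and 1023 lower, against 1781 and 1592. Of the members' fold changes under alternatives, 2284 kept direction and side of the threshold, 196 lost the call and 19 gained it, and 21 values moved.

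The replicate block gave 22 members higher and 1 lower at day 6, 13 higher at day 10, 0 for day 10 against day 6, 52 in culture, 31 in CD48+ HPCs and 8 for the difference of effects. Over all genes it gave 3162 higher and 3235 lower at day 6 and 1927 higher at day 10, of 12886. It gave 4122 of 12386 genes higher in culture, 1464 of 12719 higher in CD48+ HPCs and 823 of 13468 lower for the difference. Same-numbered libraries correlated between -0.179 and 0.112, so the numbers were not taken as pairs. The lowest members rest on few reads, and 34 of 64 had less than 50% unique reads, which limits what can be said of single copies.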
